A study of Mus musculus with 35 samples.

Results

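The genes considered are 9 channel genes of the mouse, chosen by gene family. There are 7 connexin genes among them (*Gja1*, *Gja4*, *Gja5*, *Gjb2*, *Gjc1*, *Gjc3*, *Gjd2*) and 2 pannexin genes (*Panx1*, *Panx2*), out of 53465 genes listed in the bulk table. All 9 are listed there, and all but *Gjb2* are listed in the single-cell tables. The samples come from mouse brain at the embryonic stage E14.5, dissociated and sorted with antibodies to surface proteins. In bulk, 4 populations were profiled in 3 libraries each, called Mu-340, Mu-343 and Mu-346 for the mural population, with N, Ec and Mi in place of Mu for neural cells, endothelial cells and microglia. The gates were neural cells (negative for all the antibodies used), mural cells (high for PDGFRβ), endothelial cells (positive for PECAM1 and CD102) and microglia (positive for CD11b, medium for CD45). In the single-cell experiment, cells of 4 gates for the same populations from 3 wild-type brains were sequenced one by one on 3 plates. The well labels give the microglial gate there as positive for CD41 and medium for CD45, and do not name CD11b. The bulk libraries came from 3 wild-type brains by the study's account. No strain, sex or treatment is given in the labels of these groups, and the neural population is a mixture defined only by what it lacks.

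Connexins assemble into channels that dock between neighbouring cells and form gap junctions, through which ions and small molecules pass. Pannexins form channels in the membrane of a single cell, and the best known of them releases ATP. Gap junctions are known to couple endothelial cells with one another and with the mural cells (pericytes and smooth muscle) that wrap them, and to form the electrical synapses of neurons.

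The bulk libraries held 17638358 to 98414914 reads on genes, and 1 read corresponded to 0.264 to 1.77 normalized counts (reads divided by a size factor of the library). Each gate was led by its own marker genes: the sum of 6 endothelial markers, among them *Kdr* and *Cldn5*, was 150057 to 170704 in endothelial cells, 2172 to 3605 in mural cells, 1060.2 to 1521 in microglia and 97.2 to 117 in neural cells. The sum of 7 mural markers was 700465 to 752455 in mural cells and 4059.8 to 7141 in endothelial cells. Markers of other cell types were called too: the sum of 4 erythroid markers was 5567 to 15489 in endothelial and 3773 to 4959.9 in neural cells against 173 to 879.9 elsewhere, with 2 of the 4 called higher in each. In endothelial cells 2 of 4 choroid plexus markers were called higher (sum 89.0 to 305). Of 3 border macrophage markers tested, 2 were called higher in mural cells and 1 lower (*Pf4*, at 0 in every mural library). The list summed to 325 to 994 there, against 8983 to 11743 in microglia. The part of such cells in the results below was not tested. Neural RNA was prepared with other extraction and library kits than the remaining 3 populations, so in bulk a difference of kit and a difference of neural cells cannot be told apart. On the plates all gates shared a single protocol, and 123 neural, 210 mural, 225 endothelial and 128 microglial cells had more than 1500 transcripts, with a median of 7717, 6885, 6408 and 10761 transcripts. The single-cell libraries share 1 set of well barcodes by design. By summed markers, 2 neural, 15 mural and 15 endothelial cells were led by the markers of another population, and no microglial cell was.

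In the bulk libraries *Gja1*, *Gja4* and *Gja5* were highest in endothelial cells and *Gjc1* in mural cells, where *Gja4* was high too, while the mean of microglia was the lowest for these genes. *Gjd2*, *Panx1* and *Panx2* were highest in neural cells. The minimum of a mean normalized count of 10 over the 12 libraries was passed by 7 of the 9 genes and missed by *Gjb2* (6.73) and *Gjc3* (3.98). Of the 7, *Gjd2* and *Panx2* passed only through their level in neural cells and so had to differ. *Gja4* and *Gja5* passed only through endothelial and mural cells, with neural means of 8.31 and 0.982 and microglial means of 0.395 and 0. Their calls as higher in endothelial or mural cells, or lower in neural cells and microglia, are a description too. Counts of calls over the 7 are given as a description and support nothing. In bulk, fewer cells of a type and less RNA per cell cannot be told apart.

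**Figure D1:**
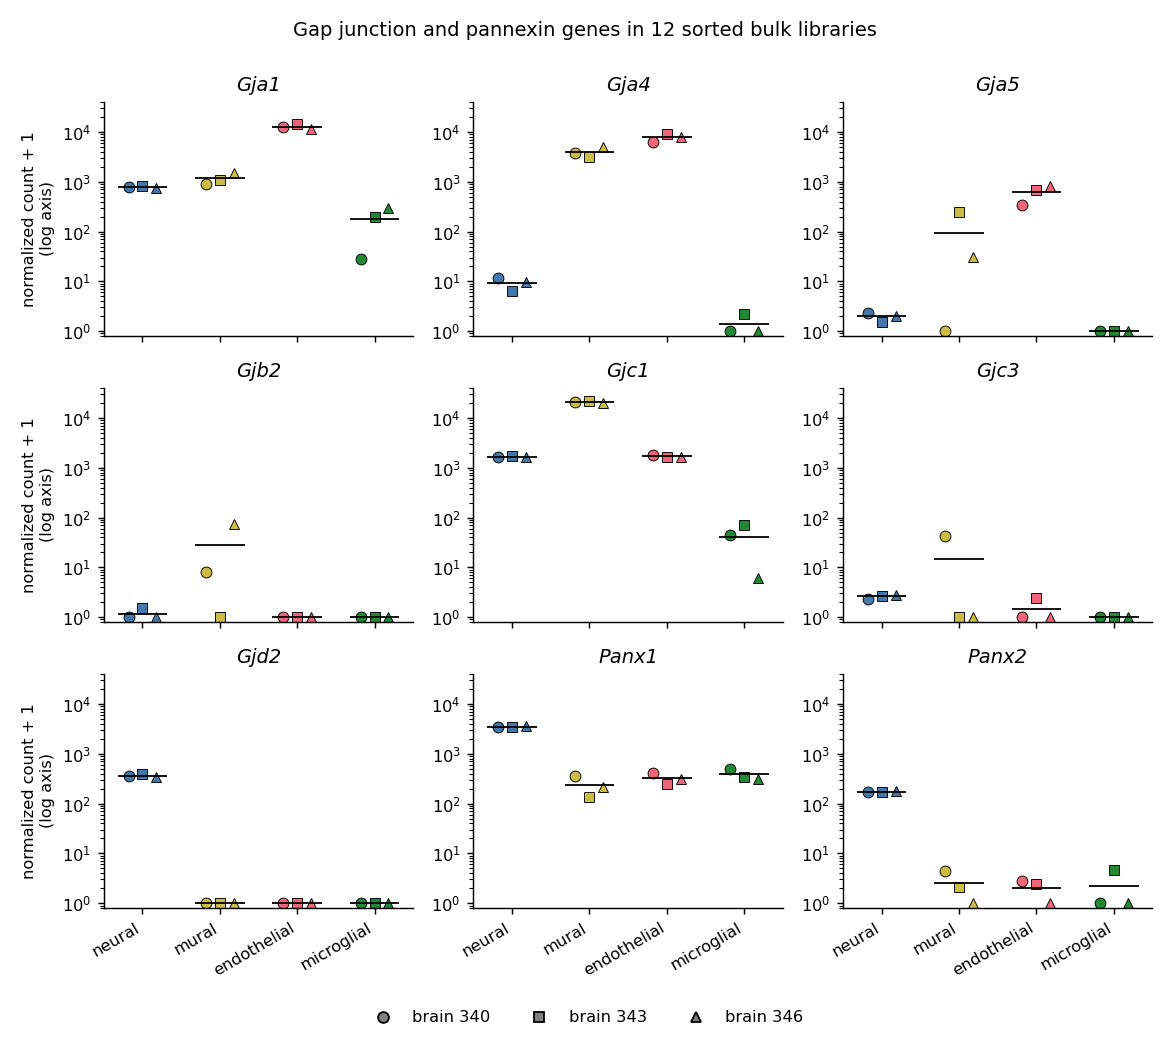
Normalized counts of the 9 channel genes in the 12 bulk libraries, on a log10 axis of the normalized count + 1. Points are single libraries and horizontal lines are the means of the 3 libraries of a population. *Gjc1* reaches 20246 to 21609.7 in mural cells, and *Gjd2* is at 0 in every library but the neural ones.

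In endothelial cells 3 of the 7 genes tested were called higher than the mean of the other 3 populations (limma, adjusted p under 0.05), against 19.7% of the 19765 genes tested: *Gja1*, *Gja4* and *Gja5*. *Gja1*, the most widely distributed connexin gene (GRCm38, chr10:56377330-56402513, plus strand), stood at 12359, 14279 and 11462 normalized counts in Ec-340, Ec-343 and Ec-346. Values below follow that order. It was at 908, 1101 and 1473 in mural cells, 764, 834 and 741 in neural cells and 27.3, 197 and 299.6 in microglia. Every endothelial library lay above all others, and every microglial library below all others. The endothelial level was 12700.1 ± 1439 (SD, n = 3), and the log2 difference from the other populations was 4.74 ± 0.55 (SE, limma, adjusted p = 6.6e-05). Each neural library also lay below each mural one, but that pair was not called, with a log2 difference of neural minus mural of -0.55 (95% interval -2.02 to 0.93, limma, adjusted p = 0.52).

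*Gja4*, a connexin gene of arterial endothelium and of the smooth muscle around it, lies at chr4:127311421-127314039 on the minus strand. Endothelial libraries gave 6345, 9075 and 7701 normalized counts and mural libraries 3748, 3155 and 4884, so that the ranges of the vascular populations did not meet. Neural libraries gave 10.7, 5.54 and 8.72, and microglial libraries 0, 1.19 and 0, which is 1 read in all. Both vascular populations were called higher than the mean of the others, by a log2 difference of 7.74 ± 0.36 in endothelial cells (SE, limma, adjusted p = 1.1e-07) and 6.43 ± 0.36 in mural cells (limma, adjusted p = 4.3e-07). Between them the log2 difference of mural minus endothelial was -0.98 (95% interval -1.95 to -0.01), with an adjusted p of 0.12 in limma, 0.038 in limma at a pseudocount of 5 and 0.025 in edgeR on the recovered reads. The 1 microglial read puts the ratio of the endothelial to the microglial level at 19105, with a counting interval of 3429 to 754596.

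*Gja5*, the connexin gene of arterial endothelium and of the conduction system of the heart, is annotated at chr3:96904693-97077416 on the plus strand. The endothelial level was 624 ± 252 normalized counts (SD, n = 3), with 689.9 in Ec-343, 836 in Ec-346 and the lowest value in Ec-340. Neural libraries gave 1.34, 0.554 and 1.06, and all endothelial libraries lay above all others. Microglial libraries were all at 0, which makes the endothelial level at least 515-fold higher (floor of 3 reads over the group). The log2 difference of endothelial cells from the rest was 7.44 ± 1.24 (SE, limma, adjusted p = 0.00076). Its size moved with the method, to 5.86 in limma at a pseudocount of 5 and 8.17 in edgeR on the recovered reads. Mural libraries were at 0, 243 and 30.1, and overlapped those of neural cells and microglia. The endothelial marker list summed to 2632, 2172 and 3605 in the mural libraries and the arterial list to 2557, 3105 and 3014, with Mu-343, the library with most *Gja5*, lowest in the former and highest in the latter. Single markers went both ways in Mu-343, with *Cldn5* at 0 and *Sox17* at 1.14 but *Cdh5* at 44.5 and *Bmx*, at 0 in the other mural libraries, both highest there among them. Their part in the mural *Gja5* values was not tested. Without the libraries numbered 340, the log2 difference of mural cells from the other populations was 2.97 (limma, adjusted p = 0.041), against 0.91 with them (limma, adjusted p = 0.59). On the recovered reads of all libraries edgeR also called it higher, at 4.50 (adjusted p = 0.029). The *Gja5* locus overlaps *Gpr89* on the opposite strand, which reached 776 normalized counts, and the sources used here do not say whether the counting used strand.

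The sequences around the start sites of the 3 endothelial connexin genes and of the neural *Gjd2* are shown because these genes of 1 family carry the endothelial and the neural pattern described here. Each is 250 bases before to 50 bases after the gene start, 5′ to 3′, as RefSeq gives it on GRCm38.p6, and was found for 7 of the 9 genes (*Gjc1* and *Panx2* were not matched). For *Gja5* the start that RefSeq gives lies inside the longer locus given above and not at its first base. For *Gja1* it lies a short way before the first base of the locus given above. Capitals mark GGGCGG (the GC box) or TGACTCA (the AP-1 element), searched on both strands, so that TGACTCA appears in *Gja1* as its complement read backwards.
Gja1: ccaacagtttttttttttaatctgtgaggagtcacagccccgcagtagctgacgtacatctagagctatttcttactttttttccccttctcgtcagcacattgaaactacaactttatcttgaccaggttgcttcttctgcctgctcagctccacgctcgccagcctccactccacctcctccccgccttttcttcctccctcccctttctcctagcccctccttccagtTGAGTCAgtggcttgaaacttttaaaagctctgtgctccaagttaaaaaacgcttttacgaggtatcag
Gja4: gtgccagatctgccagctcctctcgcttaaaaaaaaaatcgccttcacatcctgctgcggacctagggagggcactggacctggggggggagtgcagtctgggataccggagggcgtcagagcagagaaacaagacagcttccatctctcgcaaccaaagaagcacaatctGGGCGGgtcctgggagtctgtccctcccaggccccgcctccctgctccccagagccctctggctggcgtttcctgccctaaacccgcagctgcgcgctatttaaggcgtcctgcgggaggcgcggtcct
Gja5: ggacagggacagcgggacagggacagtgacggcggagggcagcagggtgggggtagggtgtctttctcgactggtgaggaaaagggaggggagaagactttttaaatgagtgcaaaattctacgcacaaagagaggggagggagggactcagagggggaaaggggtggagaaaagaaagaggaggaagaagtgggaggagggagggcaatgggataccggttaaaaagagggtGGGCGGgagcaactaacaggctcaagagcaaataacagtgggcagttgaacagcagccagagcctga
Gjd2: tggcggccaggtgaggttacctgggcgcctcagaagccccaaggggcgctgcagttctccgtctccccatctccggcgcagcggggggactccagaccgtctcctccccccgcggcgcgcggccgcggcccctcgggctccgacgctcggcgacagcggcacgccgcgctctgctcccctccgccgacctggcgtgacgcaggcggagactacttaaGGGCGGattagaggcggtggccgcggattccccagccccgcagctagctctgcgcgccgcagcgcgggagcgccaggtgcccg
In order, these lie at chr10:56377050-56377349 (plus strand), chr4:127313990-127314289 (minus strand), chr3:97032152-97032451 (plus strand) and chr2:114013570-114013869 (minus strand). Their GC content was 47.7% for *Gja1*, 62.0% for *Gja4*, 55.7% for *Gja5* and 75.0% for *Gjd2*, against a median of 52.7% over 32851 promoters. GGGCGG was found in *Gjd2*, *Gja5*, *Gja4* and *Gjb2* and in 35.7% of all promoters. TGACTCA was found in *Gja1* alone of the 7, starting 19 bases before the start that RefSeq gives, and in 5.20% of all promoters. The E-box CANNTG was in 6 of the 7 (72.3% of all promoters), the ETS core GGAA in 7 of the 7 (96.0%) and TATAAA in 0 of the 7 (13.6%). These are matches of letters in a window, and say nothing on whether a factor binds there.

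In mural cells 2 of the 7 genes tested were called higher (limma), *Gja4* and *Gjc1*, against 19.3% of all genes tested. *Gjc1*, a connexin gene of vascular smooth muscle and of the early heart (chr11:102799579-102819700, minus strand), had its highest level in mural cells. Mural libraries gave 20437, 21609.7 and 20246, endothelial libraries 1798, 1652 and 1674, neural libraries 1611, 1726 and 1655, and microglial libraries 42.8, 70.0 and 5.04. All mural libraries lay above all others and all microglial libraries below them, while neural and endothelial libraries overlapped. The mural level was 20764 ± 738 (SD, n = 3), 12.2-fold that of endothelial cells and 12.5-fold that of neural cells on the log2(normalized count + 1) scale. The log2 difference from the other 3 populations was 5.62 ± 0.55 (SE, limma, adjusted p = 2.3e-05). Neural and endothelial cells differed by -0.04 on the log2 scale (95% interval -1.53 to 1.46, limma, adjusted p = 0.98). Of 9 fibroblast and leptomeningeal markers, 7 were tested, of which 4 were higher in mural cells (*Col1a1*, *Col1a2*, *Dcn* and *Ogn*) and 1 lower (*Pdgfra*, at 0, 0 and 0.939). The list summed to 4003 to 5607 in mural libraries, and the part of such cells in the mural levels was not tested.

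In neural cells 3 of the 7 genes tested were called higher (limma), *Gjd2*, *Panx1* and *Panx2*, against 32.9% of all genes tested. *Gjd2*, the connexin gene of electrical synapses between neurons (chr2:114009601-114013619, minus strand), was at 349, 387 and 345 normalized counts in neural cells and at 0 in all 9 libraries of the other populations. The neural level was at least 508-fold higher than the mural, 232-fold higher than the endothelial and 298-fold higher than the microglial one, each against a floor of 3 reads over the group. The non-coding gene *A530058N18Rik* overlaps it on the opposite strand and reached 36.2 normalized counts in neural cells.

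*Panx1*, which encodes the widely expressed ATP-releasing pannexin (chr9:15002128-15045478, minus strand), was the only one of the 9 with at least 100 normalized counts in all 12 libraries. Neural libraries held 3376, 3418 and 3527, mural libraries 362, 135 and 218, endothelial libraries 415, 247 and 315, and microglial libraries 500.4, 338 and 311. The neural libraries stood apart and the other populations overlapped one another. The neural level was 3440.3 ± 78.1 (SD, n = 3), and its log2 difference from the rest was 3.53 ± 0.29 (SE, limma, adjusted p = 1.8e-06). None of the 3 pairs among mural, endothelial and microglial cells was called; the widest, mural minus microglial, had a log2 difference of -0.77 (95% interval -1.55 to 0.02, limma, adjusted p = 0.12).

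*Panx2*, a pannexin gene known chiefly from the nervous system (chr15:89059734-89073567, plus strand), was at 172, 168 and 175 normalized counts in neural cells. In mural cells it was at 3.50, 1.14 and 0, in endothelial cells at 1.77, 1.42 and 0, and in microglia at 0, 3.56 and 0. The log2 difference of neural cells from the rest was 6.52 ± 0.64 (SE), given as a description, since the gene passed the minimum only through its neural level. The 2 endothelial and 3 microglial reads put the neural ratio at 166 (counting interval 45.9 to 1368) and 142 (48.5 to 687).

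Microglia had 0 of the 7 genes called higher in limma, 0 at an unadjusted p under 0.05 and 0 by edgeR, against 23.4% of all genes tested. In the other direction 6 of the 7 were called lower, against 22.3%: all but *Panx1*, whose log2 difference was -0.73 ± 0.29 (SE, limma, adjusted p = 0.061, or 0.035 with the library number as a block, which makes 7 of 7). The call for *Gja1* (log2 difference -4.23 ± 0.55, limma, adjusted p = 9e-05), that for *Gja4* and that for *Gjc1* (-7.19 ± 0.55, limma, adjusted p = 1.7e-06) rested on microglial libraries below all others. The calls for *Gjd2* and *Panx2* rested on the neural libraries alone, since no pair among mural, endothelial and microglial cells was called for these genes, and edgeR made neither call. The *Gja5* call was not made without N-346, Mu-346, Ec-346 and Mi-346 (limma, adjusted p = 0.12). The microglial libraries also held transcripts of some of the 6 endothelial marker genes, of which 1 was called higher and 4 lower there (limma). *Pecam1* was at 1027, 457 and 835, *Kdr* at 132, 319 and 271 and *Cd93* at 15.5, 106 and 65.5. *Cldn5* was at 0, 0 and 3.78 and *Tek* at 1.19, 0 and 0, beside *Gja1* at 27.3, 197 and 299.6. *Cdh5* was highest in the library lowest for *Gja1*, with 179 and 164 in the others. Any part of endothelial cells in the *Gja1* values was not tested.

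Both genes under the minimum had their highest value in a single mural library. *Gjb2*, a connexin gene of epithelia and of the leptomeninges (chr14:57098600-57104702, minus strand), was at 6.99, 0 and 73.3 normalized counts in mural cells. It had 1 read (0.554) in neural cells and 0 in endothelial cells and microglia. *Gjc3*, a connexin gene of glia in the mouse (chr5:137953461-137963098, minus strand), was at 41.5, 0 and 0 in mural cells, at 1.34, 1.66 and 1.85 in neural cells, at 0, 1.42 and 0 in endothelial cells and at 0 in microglia. The highest library was Mu-346 for *Gjb2* and Mu-340 for *Gjc3*. Of the 9 fibroblast and leptomeningeal markers, *Aldh1a2* (0, 0 and 58.2), *Slc6a13* (0, 34.2 and 47.0), *Col1a1*, *Col1a2* and *Pdgfra* were highest in Mu-346, the library highest for *Gjb2*. *Lum* (138, 0 and 5.64) was highest in Mu-340, *Dcn* (62.0, 156 and 92.0) and *Ogn* in Mu-343, and *Dpt* was at 0. The part of such cells in the *Gjb2* and *Gjc3* values was not tested.

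Over the 6 pairs of populations, 28 of the 42 comparisons of the 7 genes were called (limma). Of all genes, 27.8 to 59.8% were called per pair, and each share given for a pair counts both directions. The total includes genes that passed the minimum only through the populations where they were high, and is a description. Between neural and mural cells 3 genes were higher and 2 lower in neural cells, against 54.6% of all genes called in either direction. Between neural and endothelial cells 3 were higher and 3 lower, against 57.7%. Neural cells exceeded microglia in 6 genes, all but *Gja5*, against 59.8%. These shares of all genes are large, and the member counts in pairs with neural cells are to be read against them.

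Within the vessel wall, mural minus endothelial cells gave 1 gene higher (*Gjc1*) and 2 lower (*Gja1*, *Gja5*), against 27.8% of all genes. For *Gjc1* the log2 difference was 3.60 ± 0.68 (SE, limma, adjusted p = 0.0025), and 3.65 with an adjusted p of 0.055 in the smaller fit without the libraries numbered 340. For *Gja1* it was -3.47 ± 0.67 (limma, adjusted p = 0.0029), and -3.36 with an adjusted p of 0.068 without N-343, Mu-343, Ec-343 and Mi-343. *Gja5* gave -4.90 ± 1.51 (limma, adjusted p = 0.034), which edgeR did not call (adjusted p = 0.23) and which was lost without the libraries numbered 340 (-3.13, limma, adjusted p = 0.091) or without N-346, Mu-346, Ec-346 and Mi-346 (-4.97, limma, adjusted p = 0.21), and with no minimum (limma, adjusted p = 0.061). Mural cells exceeded microglia in 4 genes, against 38.0%, and endothelial cells exceeded microglia in 4, against 32.4%; in both pairs these were *Gja1*, *Gja4*, *Gja5* and *Gjc1*. The mural excess of *Gja5* over microglia was lost without the set of Mu-343 (limma, adjusted p = 0.3) and without that of Mu-346 (limma, adjusted p = 0.28), with no minimum (limma, adjusted p = 0.076) and at a pseudocount of 5 (limma, adjusted p = 0.057).

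To compare levels between genes, normalized counts were divided by gene length, on 2 scales: the joined length of all exons, and the length of the longest principal transcript. The summed level of all connexin genes per kb of exon was 6629 ± 435 in mural cells, 6338 ± 941 in endothelial cells, 553 ± 22.8 in neural cells and 56.1 ± 43.7 in microglia (SD, n = 3). In mural cells *Gjc1* made up 62.8% ± 5.71 of it and *Gja4* 34.9% ± 5.57, but *Gja4* made up only 19.8% ± 3.88 by the principal transcript and 13.6% of the connexin transcripts of single cells. In neural cells *Gjc1* made up 60.2% ± 0.643, *Gjd2* 22.6% ± 0.588 and *Gja1* 13.7% ± 0.394. The order of the last pair changed with the scale, with *Gjd2* at 11.3% ± 0.289 and *Gja1* at 22.1% ± 0.619 by the principal transcript, and 13 and 10 of 80 single-cell transcripts.

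In endothelial cells the order of *Gja1* and *Gja4* was not settled by these data either. *Gja4* made up 72.0% ± 2.37 and *Gja1* 19.7% ± 2.22 of the connexin level by all exons, but 47.5% ± 3.20 and 41.8% ± 3.20 by the principal transcript. In the single-cell data, where each transcript is counted once whatever its length, *Gja1* held 286 and *Gja4* 227 of 646 connexin transcripts, which is 44.3% (exact 95% interval 40.4 to 48.2%) and 35.2% (31.5 to 39.0%). The intervals cover counting error only and take the transcripts of a cell as independent. By plate, *Gja1* and *Gja4* made up 41.9% and 41.3% on plate 1 and 54.6% and 20.7% on plate 2. On plate 3, with 13 endothelial cells, *Gja1* (3 transcripts, 12.5%) was below *Gja4* (6 transcripts), and *Gjc1* (13 transcripts) made up 54.2%. The mural marker *Rgs5* was at 1694 CPM (scale given below) in the 10 of these cells without *Gja4*. Endothelial-gate cells without *Gja4* on plates 1 and 2 held it at 180.5 and 65.8 CPM. The part of mural cells in the make-up of plate 3 was not tested. *Gjc1* led in mural and neural cells on all 3 scales, with 1214 of 1425 mural transcripts (85.3%) and 52 of 80 neural transcripts (65.0%). Of the pannexin level per kb of exon, *Panx1* held 92.3% in neural cells, where the sum was 618 ± 13.5, and 96.9 to 99.4% in the other populations, where the sums were 40.7 to 63.9.

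**Figure D2:**
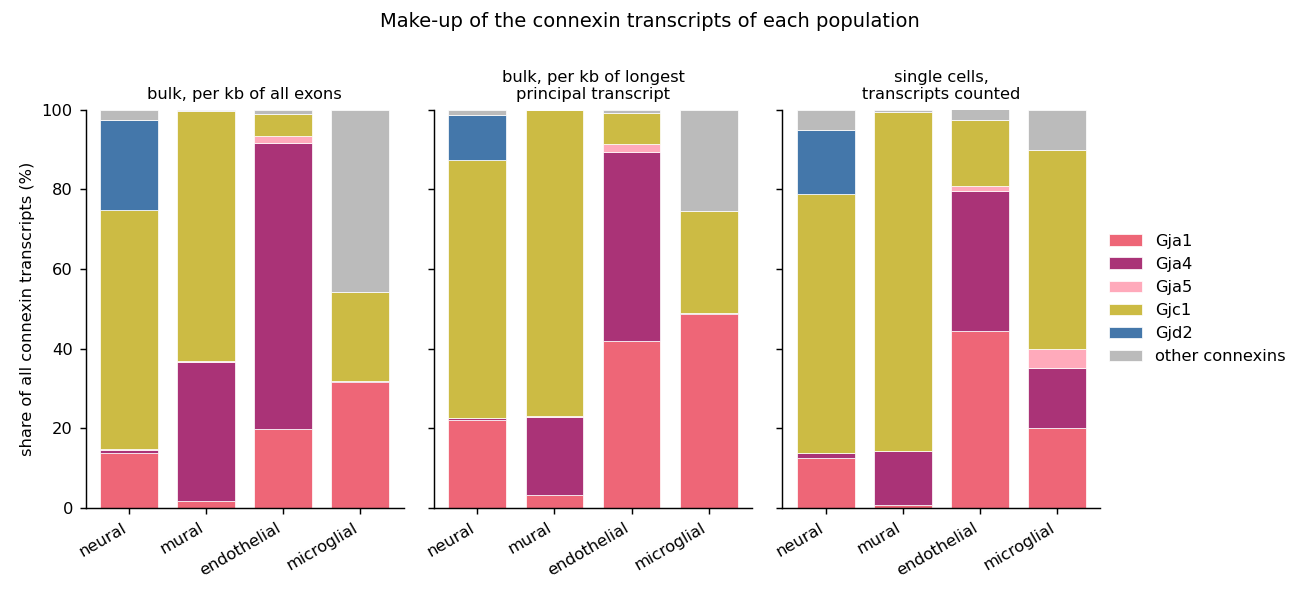
Share of each connexin gene in the summed connexin level of a population (percent), by the length of all exons, by the longest principal transcript and by single-cell transcripts. *Gjc1* leads in mural and neural cells on all 3 scales, while in endothelial cells *Gja4* is at 72.0%, 47.5% and 35.2% and *Gja1* at 19.7%, 41.8% and 44.3% on the 3 scales in turn.

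In the single cells, transcripts were summed per plate and gate and tested with edgeR. Only 4 of the genes, *Gja1*, *Gja4*, *Gjc1* and *Panx1*, passed its filter on low counts, out of 9281 genes tested. *Gja1* passed it only through the endothelial and *Panx1* only through the neural gate, so both had to differ, and their calls and the counts below that include them are a description. *Gja4* also passed without the endothelial gate, where it was highest, but not without both the endothelial and the mural gate. Its calls against the other gates are therefore a description too. *Gjc1* passed without the mural gate, where it was highest, and also without both of these gates. In the endothelial gate 2 were called higher, *Gja1* and *Gja4*, against 16.4% of all genes. In the mural gate 2 were called higher, *Gja4* and *Gjc1*, against 13.5%. In the neural gate it was *Panx1* alone, against 22.5%. The microglial gate had 0 called higher, 0 also at an unadjusted p under 0.05 and by DESeq2, against 22.2%, and 3 called lower (*Gja1*, *Gja4*, *Gjc1*), against 21.2%. Of these, the microglial call for *Gja4* (edgeR, adjusted p = 0.039) was lost without plate 1 (adjusted p = 1). The microglial call for *Gja1* (edgeR, adjusted p = 0.0024) was lost without plate 1 (adjusted p = 0.052) or plate 2 (adjusted p = 0.15).

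*Gja1* transcripts were found in 55.6% of endothelial cells (125 of 225, exact 95% interval 48.8 to 62.2%), in 8.13% of neural, 3.33% of mural and 2.34% of microglial cells. These intervals cover counting error only. In CPM (a gene's transcripts scaled to a common total for each gate), its endothelial level was 196, 149 and 42.7 on plates 1, 2 and 3, with 120, 92 and 13 cells, and no plate of any other gate passed 11.8 CPM. The log2 fold change was 4.84 ± 0.31 (SE, edgeR). With every cell thinned to 1500 transcripts, the endothelial share was 20.4%.

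*Gjc1* was found in 88.1% of mural cells (185 of 210, 82.9 to 92.1%), and in 32.5% of neural, 30.7% of endothelial and 7.81% of microglial cells. Mural plates gave 786, 782 and 769.6 CPM, and its log2 fold change was 4.49 ± 0.27 (SE, edgeR, adjusted p = 4.1e-21). The share in microglia, at a median depth of 10761 transcripts, is used as the background level, and the endothelial share at a median of 6408 was above it. Leaving out the 15 endothelial cells led by other markers kept that share at 30.5%, at 57.6 CPM. Thinned to 1500 transcripts, the shares were 60.5% in mural, 10.2% in endothelial, 7.32% in neural and 0.781% in microglial cells.

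*Gja4* was found in 46.7% of mural (98 of 210, 39.8 to 53.7%) and 24.0% of endothelial cells (54 of 225, 18.6 to 30.1%), against 2.34% of microglial and 0.813% of neural cells. Fewer endothelial than mural cells held it, but summed over cells it was at 136 CPM in the endothelial and 124 CPM in the mural gate. Plates 1, 2 and 3 gave 193, 56.6 and 85.5 CPM in the endothelial gate and 152, 109.9 and 54.9 CPM in the mural gate, so that neither gate was higher on every plate. The log2 fold change of mural against endothelial was -0.18 ± 0.30 (SE, edgeR, adjusted p = 0.76). Thinned, the shares were 14.3% and 13.8%.

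*Panx1* was found in 26.0% of neural cells (32 of 123, 18.5 to 34.7%) and in 7.81% of microglial, 4.29% of mural and 3.56% of endothelial cells. Neural plates gave 35.4, 52.1 and 65.7 CPM, and no plate of another gate passed 11.5 CPM. The log2 fold change was 2.65 ± 0.43 (SE, edgeR), in cells that shared 1 protocol with the other gates. The log2 fold change was 3.61 without plate 1 and 2.33 without plate 3. Without plate 2, the gene did not pass the filter on low counts and could not be tested. *Gjd2* was found in 7 of 123 neural cells (5.69%, 2.32 to 11.4%), with 13 transcripts. It was in 0 of 210 mural, 0 of 225 endothelial and 0 of 128 microglial cells, which allows shares of up to 1.74%, 1.63% and 2.84% by the exact interval. Such limits hold for cells with a transcript and not for cells that express the gene.

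The remaining genes were near the limit of this depth. *Gja5* was found in 9 of 225 endothelial cells (4.00%, 1.85 to 7.46%), each with 1 transcript. It was found in 1 mural, 1 microglial and 0 neural cells, and the microglial interval (0.0198 to 4.28%) overlaps the endothelial one. *Gjc3* was found in 0.781 to 1.78% of the cells of each gate, a like low share throughout. *Panx2* was found in 1 neural cell and no other.

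**Figure D3:**
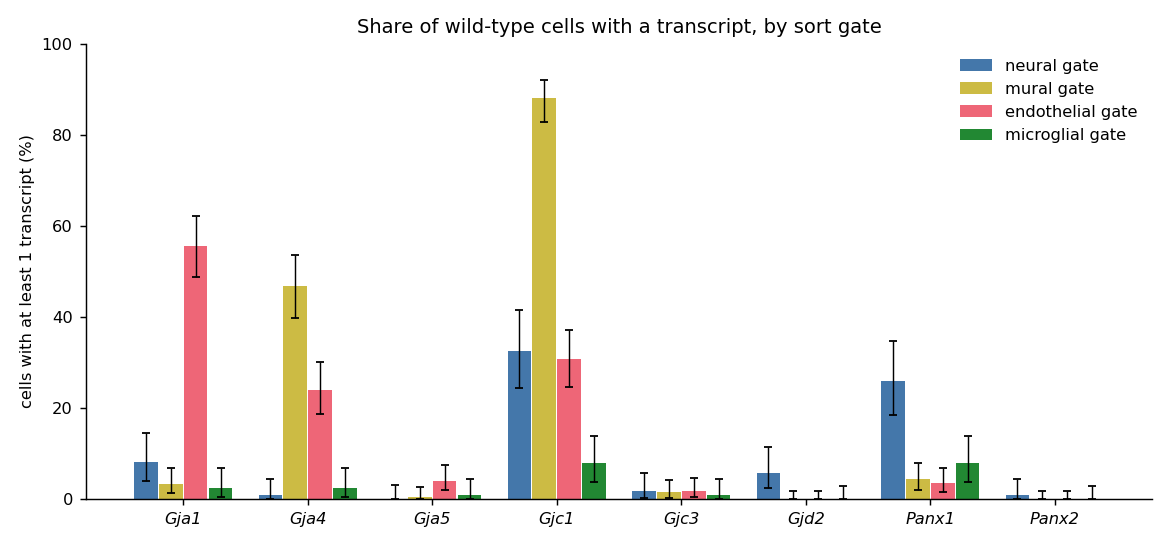
Share of wild-type cells with at least 1 transcript of a gene (percent), by sort gate. Bars are shares over the cells of 3 plates and error bars exact 95% intervals, which cover counting error only; *Gjc1* reaches 88.1% in the mural gate and *Gja1* 55.6% in the endothelial gate.

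The spread over cells differed between the genes. In the endothelial gate *Gja4* was at 0 in 171 of 225 cells, at 1 in 22, at 2 in 5, at 3 to 5 in 17, at 6 to 9 in 5 and at 10 or more in 5, with up to 35 transcripts in a cell. The 22 cells with most *Gja4* held 79.3% of its transcripts. For *Gja1* in the same gate the top 22 cells held 43.7%, with at most 10 transcripts in a cell. In the mural gate the top 21 cells held 45.1% of *Gja4* and 29.0% of *Gjc1* transcripts. The variance over the mean was 10.8 for endothelial *Gja4*, 2.13 for mural *Gja4*, 2.62 for endothelial *Gja1* and 4.33 for mural *Gjc1*. *Gja4* was found in 54 endothelial and 98 mural cells. With every cell thinned to 1500 transcripts it was found in 31 and 30, its top cells held 83.6% and 76.9% of the transcripts and its variance over the mean was 2.37 and 1.49, so that most of the contrast between the gates was not seen at that depth.

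**Figure D4:**
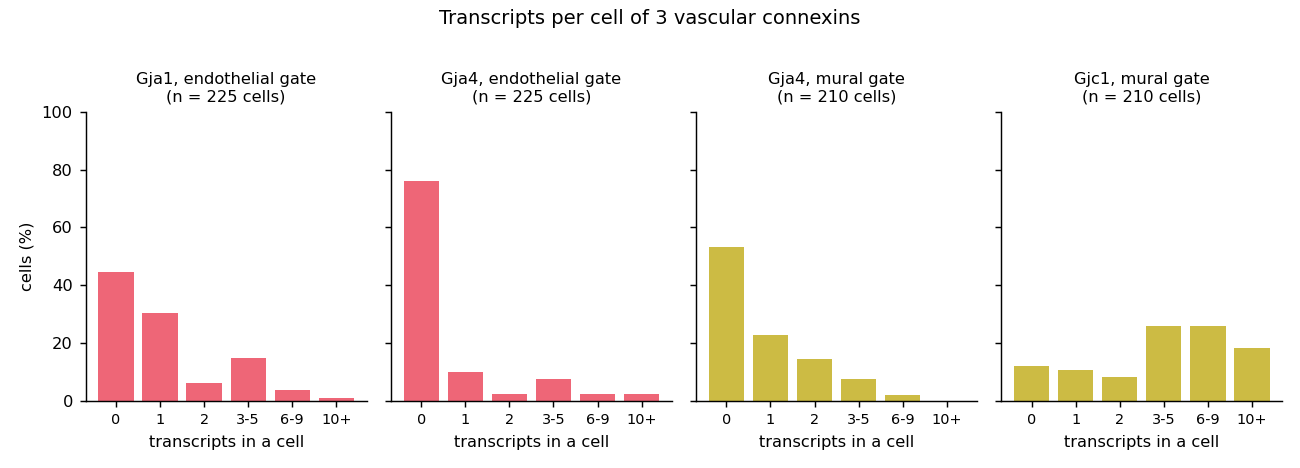
Number of transcripts per cell for *Gja4* and *Gja1* in the endothelial gate and for *Gja4* and *Gjc1* in the mural gate. Bars give the percentage of the cells of a gate with each number of transcripts; endothelial *Gja4* is at 0 in 171 of 225 cells and reaches 10 or more in 5, while mural *Gjc1* is at 0 in 25 of 210.

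*Gja1* was found in 59.3% of the endothelial cells with *Gja4* and in 54.4% of those without it, with 32 cells holding both. Of the 98 mural cells with *Gja4*, 95 also held *Gjc1*, and of the 112 without *Gja4*, 90 did. The mural cells with *Gjc1* had a median of 7143 transcripts and those without it 3882, so that depth moves with this pairing.

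The endothelial cells were then set in ranges of their *Gja4* transcripts, a division made after the values were seen and described without a test. Among the 210 endothelial cells led by endothelial markers, 161 had 0, 24 had 1 or 2 and 25 had 3 or more. *Hey1*, a Notch target of arterial endothelium, was found in 16.1%, 45.8% and 64.0% of these ranges. *Efnb2*, the ephrin ligand of arterial endothelium, was found in 25.5%, 54.2% and 76.0%. The other arterial genes differed less, with *Dll4*, a Notch ligand, in 43.5%, 41.7% and 60.0%, and *Sox17*, an arterial transcription factor, in 55.3%, 62.5% and 76.0%, while *Bmx* was found in none of these cells.

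Among the connexins, *Gja1* was found in 92 of 161, 12 of 24 and 19 of 25 cells of the ranges, *Gja5* in 4, 1 and 3 cells, and *Gjc1* in 53, 8 and 3. The exact intervals of *Gjc1* in the lowest and highest range (25.7 to 40.8% and 2.55 to 31.2%) overlap. Depth moved with the ranges, with medians of 6153, 7230.3 and 7682 transcripts, and its part was not tested. On the CPM scale *Hey1* was at 29.7, 119.8 and 257 CPM and *Efnb2* at 54.2, 172 and 300.2 CPM. On plate 1 *Hey1* was at 36.4 CPM in cells without *Gja4* and 304 CPM in those with 3 or more, and on plate 2 at 22.0 and 127 CPM. Of the 7 mural markers, 4 (*Pdgfrb*, *Cspg4*, *Kcnj8* and *Notch3*) were found in 0 of the 25 cells with 3 or more *Gja4* transcripts and in 4, 4, 3 and 8 of the 161 cells without *Gja4*. *Rgs5* was found in 5 of them, *Vtn* in 2 and *Abcc9* in 1, against 32, 12 and 7 of the 161. Cells led by these same mural markers had been left out, so low mural values here follow in part from the selection. Over all cells of the endothelial gate, *Rgs5* was found in 7 of 27 cells with 3 or more *Gja4* transcripts (702 CPM). Without *Gja4* it was found in 35 of 171 cells (204 CPM).

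**Figure D5:**
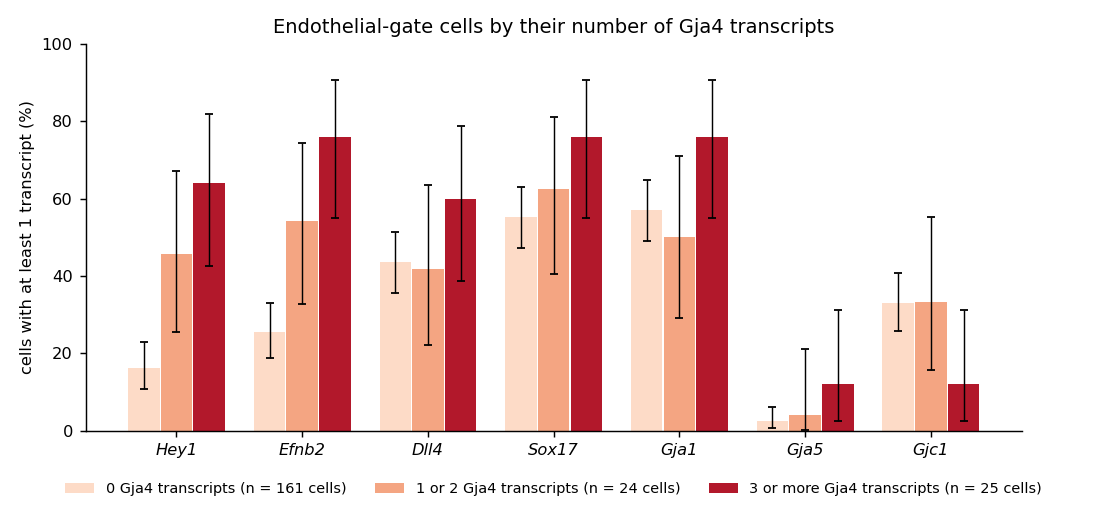
Share of endothelial cells with at least 1 transcript of arterial genes and of other connexins (percent), by their number of *Gja4* transcripts. Error bars are exact 95% intervals for counting error only; *Hey1* goes from 16.1% to 64.0% and *Efnb2* from 25.5% to 76.0% between 0 and 3 or more *Gja4* transcripts.

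Neural cells were divided by which of 2 marker lists had more transcripts, a progenitor list (*Sox2*, *Pax6*, *Nes*) in 34 cells and a neuronal list (*Tubb3*, *Dcx*, *Map2*) in 84, with 5 cells equal. All 7 cells with *Gjd2* were in the neuronal range (8.33%, exact interval 3.42 to 16.4%), and 0 of 34 in the progenitor range (up to 10.3% of cells with a transcript). *Panx1* was found in 29.8% of the neuronal (20.3 to 40.7%) and 17.6% of the progenitor range (6.76 to 34.5%). *Gja1* was found in 7.14% and 11.8%, and *Gjc1* in 32.1% and 35.3%. All these intervals overlap between the ranges, whose median depths were 7736 and 7919.5 transcripts.

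Of 10 genes for scaffold and trafficking partners of gap junctions, 9 were tested. In neural cells 7 were higher and 1 lower (median log2 difference 2.17), against 32.9% and 31.2% of all genes tested (median 0.09). In endothelial cells 5 were higher and 0 lower (0.95), against 19.7% and 22.4% (-0.12). In mural cells 4 were higher and 1 lower (0.32), against 19.3% and 22.7% (-0.10). In microglia 0 were higher and 8 lower (-2.92), against 23.4% and 22.3% (-0.02). *Tjp1*, the scaffold that binds the tail of the *Gja1* product, was highest where *Gja1* was, at a log2 difference of 2.61 ± 0.17 in endothelial cells (SE, limma, adjusted p = 1.1e-06). *Cdh2* (N-cadherin, the adhesion molecule between endothelial and mural cells) was lower in microglia by a log2 difference of -6.73 ± 0.14 (limma, adjusted p = 2.4e-10). The ubiquitin ligase gene *Nedd4*, which acts on the *Gja1* product, was at -5.14 ± 0.17 there (limma, adjusted p = 3.8e-09). *Dbn1* (drebrin, an actin-binding protein) was at -4.42 ± 0.27 (limma, adjusted p = 2.3e-07) and *Cttn* (cortactin, a protein of the actin cortex) at -4.07 ± 0.40 (limma, adjusted p = 1.1e-05) in microglia.

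Receptors and enzymes for extracellular nucleotides, the signal that pannexin channels release, differed between the populations. Of 22 such genes 20 were tested, and the shares and medians of all genes given above for each population apply here too. In microglia 10 were higher and 2 lower (median 2.23, all genes -0.02, with 23.4% and 22.3% called). In mural cells 6 were higher and 6 lower (-0.93), in neural cells 3 and 7 (-1.27) and in endothelial cells 2 and 10 (-3.00). Of the 20, 3 passed the minimum only through microglia (*P2ry2*, *P2ry13* and *Adora3*), 1 only through neural (*P2rx2*) and 1 only through mural cells (*Entpd2*). These had to differ, so the counts and the value of *P2ry13* are a description. The nucleotide receptor genes *P2ry12* (log2 difference 14.62 ± 1.31, limma, adjusted p = 5.4e-06) and *P2ry13* (12.63 ± 1.08) led in microglia, with *P2ry6* at 10.55 ± 1.10 (limma, adjusted p = 1.8e-05). *P2ry14*, a receptor gene for UDP-sugars, led in mural cells at 10.46 ± 0.92 (limma, adjusted p = 1.1e-05). The adenosine receptor gene *Adora2a* was higher in endothelial (4.29 ± 0.40, limma, adjusted p = 1.5e-05) and mural cells (3.22 ± 0.40, limma, adjusted p = 0.0001). *Entpd1*, whose product degrades ATP at the cell surface, was higher in microglia (5.06 ± 1.0, limma, adjusted p = 0.0017) and endothelial cells (3.0 ± 1.0, limma, adjusted p = 0.032).

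Over the 12 bulk libraries, the genes most like each member by Pearson's r of log2 values were as follows, as a description over libraries that fall into 4 populations. *Gja1* was most like *Plp2* (r = 0.980), *Arhgef15* (0.974) and *Ptpn14* (0.968). *Gja4* was most like *Bvht* (0.994), *Foxq1* (0.991) and *Pdlim7* (0.991), and *Gja5* most like *Tinagl1* (0.987), *Kcnj15* (0.977) and *Gm15998* (0.974). For *Gjc1* these were *Col26a1* (0.990), *Nrep* (0.977) and *Gab1* (0.975). An r over 0.95 was reached by 20 of 19736 genes for *Gja1*, 95 for *Gja4*, 4 for *Gja5* and 25 for *Gjc1*. It was reached by 459 for *Gjd2*, 231 for *Panx1* and 235 for *Panx2*, the neural genes, whose nearest were *Tunar*, *Ago1* (r = 0.989) and *Fbxo11* (0.992).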

How the data were processed

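Bulk RNA-seq of 12 sorted libraries and mCEL-Seq2 single cells of 3 wild-type plates were analysed; the Mof knockout libraries were not used here. The authors deposited the bulk values as normalized counts, a signal in which reads are divided by a size factor of each library. The submitters' processing notes name BWA 0.6.2-r126, STAR, featureCounts, DESeq2 and the build mm10; the strand setting is not given in the sources used here. Whole reads could be recovered: 100% of 124078 values up to 100 reads were whole within 0.01. The authors deposited the single-cell values as other numbers, expected counts of transcripts corrected for collisions of 4096 molecular identifiers, and doublets were not called. Libraries share 192 well barcodes by design. The filter of more than 1500 transcripts left more cells than the study states.

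Genes were named through GENCODE vM21 (53274 of 53465 rows matched). Genes with a mean of at least 10 (19765) were tested with limma 3.58.1 on log2(normalized count + 1), two-sided, in 1 fit of 4 populations with a trend, as each population against the mean of the other 3 and as 6 pairs; p-values were adjusted by Benjamini-Hochberg over all genes tested, and an adjusted p under 0.05 was a call. A fold change on this scale understates that of low genes. Transcripts summed by plate and gate, rounded, were tested with edgeR 4.0.16 (TMM, quasi-likelihood); its standard errors were derived from the F statistic. Shares have exact (Clopper-Pearson) 95% intervals. Samples that share a number were not treated as pairs: residuals of the 18 same-number pairs correlated at -0.054 to 0.080 in bulk. The study gives 3 wild-type brains for the bulk libraries; whether a library number marks 1 brain is not given in the sources used here. Fits were tested on simulated data with 200 changed genes. The genes and lists were chosen with earlier results of these data known, and the genes named from a list are the 4 called with the largest differences at most, with *Tjp1*, *Adora2a* and *Entpd1* chosen after their values were seen. Alternatives were other pseudocounts, minimums, normalizations, tools and blocks, leaving out each library number or plate and, chosen after seeing the data, the principal transcript as length, leaving out cells led by other markers and shares without plate 3.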

Additional observations from a re-analysis of the deposited data

Results flagged for a closer look

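Another gate, medium or low for PDGFRβ, enters no comparison of the report. Its 23 cells with more than 1500 transcripts (median 5718) held 52 *Gjc1* transcripts in 17 cells (73.9%; exact 95% interval 51.6 to 89.8%, 317 CPM) and 8 *Gja4* transcripts in 6 cells (26.1%; 10.2 to 48.4%, 48.7 CPM). They are given because these cells lie outside the comparisons and held transcripts of both genes. In the same cells *Gja1*, *Gja5* and *Gjd2* were at 0, the mural markers *Rgs5* and *Pdgfrb* were found in 12 and 10 cells, and the endothelial markers *Cldn5* and *Pecam1* in 0 and 2.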

How the results depend on the processing

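Of the counts of called genes under all alternatives, 84 of 86 stayed within 1.5 times their value. The exceptions were the single-cell neural gate, with 2 genes called higher instead of 1 without the filter on low counts (*Gjd2* was added), and 0 without plate 2, where *Panx1* fell under the filter. Leaving out library numbers or plates in turn gave 26 to 29 called pairs, 2 to 3 genes higher in mural cells, 3 in neural and endothelial cells and 0 in microglia, and in single cells 0 to 1 in the neural and 2 in the mural and endothelial gates. The pairs called were 29 by edgeR, 25 at a minimum mean of 50, where *Panx2* was not tested, and 26 with no minimum.

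With the replicate number as a block, 28 pairs were called, as without it; the paired fit changed no call but that of *Panx1* lower in microglia (limma, adjusted p = 0.035). The calls of *Gjd2* and *Panx2* as lower in the populations that lack them were lost under edgeR, and those of *Panx2* in mural and endothelial cells also at a pseudocount of 0.5 (limma, adjusted p = 0.079 and 0.051), under quantile normalization (0.093 and 0.051) and without some or all of the library numbers in turn. In single cells, *Gja1* lower in the mural gate (edgeR, adjusted p = 0.028) was lost under DESeq2 (adjusted p = 0.14), at a minimum of 3000 transcripts, with no filter and without plate 1 or plate 2, and *Panx1* lower in the endothelial gate was gained without the cells led by other markers (edgeR, adjusted p = 0.033). Of the shares of cells, 105 of 128 stayed inside their interval, and 22 of the 23 that moved did so on thinning. Depth limits *Gja5*, *Gjc3*, *Gjd2* and *Panx2* in the single cells; low bulk values rest on few reads.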
